A study of Mus musculus with 11 samples.

Results

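DNA methylation of knockout granulocyte-macrophage progenitors (GMP) was compared with that of knockout LSK cells, the bone marrow fraction that holds the blood stem cells. The libraries were chosen by title and genotype field: all Cre-positive libraries of the series, 2 of GMP (178 and 179) and 3 of LSK (1327, 1333 and 1334), of 11 libraries in all. A further GMP library, 352, is titled Cre-positive but its genotype field says cKO_Cre-, so it entered no test and is shown apart. The mice were C57BL/6, carried Dnmt3af/f (a floxed Dnmt3a gene) with Mx1-Cre, were 12 months old and had been injected intraperitoneally with poly(I:C) 5 times. The controls, read only as a background, were Dnmt3af/f animals without Cre, labelled as treated in the same way, with 3 LSK libraries (1326, 1330, 1331) and 2 GMP libraries (346, 349). Mx1-Cre is switched on by interferon, so deletion depends on the response of each cell and can be partial. LSK cells were sorted as Lin- Sca1+ cKit+ and GMP as Lin- Sca1- cKit+ CD34+ FcgR+. Nothing in the labels ties a library to its own animal, and p-values here reflect only how much these libraries vary.

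Dnmt3a adds methyl groups to unmethylated CpG sites, while Dnmt1 copies existing methylation after replication. Blood progenitors are known to lose methylation at enhancers of the lineage they enter and to gain it at some genes of other lineages. A GMP gives rise to neutrophils and monocytes and makes the enzymes of the neutrophil primary granules, such as myeloperoxidase.

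The level of a C position is the percent of reads that kept C after bisulfite treatment. The comparison used 1294629 C positions on autosomes with 10 or more reads in all 6 libraries titled Cre-positive, of 1915457 autosomal positions listed in any library. They fell into 101233 fixed tiles of 1000 bp with at least 3 positions. The knockout LSK libraries had a summed coverage of 163.6 to 164.1 M (1e6 reads) and the knockout GMP libraries 95.4 to 109.7 M, with medians of 85 to 91 and 50 to 59 reads per position. The 2 cell types therefore differed in depth. LSK library 1333 stood apart, with 115625 autosomal positions that no other library lists, against 6216 to 34786 in the other 10.

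The Dnmt3a gene lies on chromosome 12 from 3801559 to 3914443 (GRCm38), and 5 C positions between 3903653 and 3904031 mark the deleted segment, because all controls list them and no knockout LSK library does. That choice makes the LSK values a description. In GMP, 4 of the 5 were listed in 178 and all 5 in 179. Against flanks of 10 kb, coverage over the segment was 27.9% of the control GMP mean in 178 and 53.3% in 179. Library 352 listed 0 of 5. Positions under 10 reads are unlisted, so 0 listed does not mean 0 reads. The knockout GMP libraries thus held reads from the segment, and the comparison is between LSK libraries without a listed position there and GMP libraries that retained part of it. How this retention bears on the differences described next was not tested.

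The promoters of 4 genes with lower and 3 with higher levels are shown first, because they let the tested letters be seen beside their values. They were chosen after their values were seen. Of the autosomal RefSeq start-site windows (GRCm38.p6, 300 bases each), 12 of those read here held tested positions inside a tile that passed the test. Each line gives the 250 bases before the start site, 5′ to 3′ in the direction of the gene. Capitals mark the tested C positions, written as G where the measured C is on the opposite strand. Tested positions after the start site (1 in Mcemp1 and 3 in Arhgef18) are in the means given next but not in the printed letters. The lower ones belong to Angptl8 (a secreted regulator of lipoprotein lipase; chr9:21835260-21835509, + strand), Gpld1 (a phospholipase that cleaves GPI anchors; chr13:24942902-24943151, + strand), Mcemp1 (a membrane protein of mast cells and myeloid cells; chr8:3665512-3665761, + strand) and Tbc1d22a (a TBC-domain protein; chr15:86277425-86277674, + strand).
Angptl8: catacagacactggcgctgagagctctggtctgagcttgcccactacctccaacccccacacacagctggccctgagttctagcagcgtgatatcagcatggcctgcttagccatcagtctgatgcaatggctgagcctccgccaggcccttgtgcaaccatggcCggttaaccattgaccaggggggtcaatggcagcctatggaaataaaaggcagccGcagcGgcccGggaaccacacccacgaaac
Gpld1: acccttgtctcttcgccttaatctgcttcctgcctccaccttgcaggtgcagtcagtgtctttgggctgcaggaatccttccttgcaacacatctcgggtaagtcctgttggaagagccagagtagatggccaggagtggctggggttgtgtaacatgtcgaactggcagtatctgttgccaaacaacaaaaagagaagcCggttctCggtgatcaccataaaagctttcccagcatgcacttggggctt
Mcemp1: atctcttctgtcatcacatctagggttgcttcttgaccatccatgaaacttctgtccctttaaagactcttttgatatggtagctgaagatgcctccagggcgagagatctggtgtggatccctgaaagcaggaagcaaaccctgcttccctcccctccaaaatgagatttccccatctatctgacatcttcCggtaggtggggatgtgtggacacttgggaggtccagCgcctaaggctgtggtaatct
Tbc1d22a: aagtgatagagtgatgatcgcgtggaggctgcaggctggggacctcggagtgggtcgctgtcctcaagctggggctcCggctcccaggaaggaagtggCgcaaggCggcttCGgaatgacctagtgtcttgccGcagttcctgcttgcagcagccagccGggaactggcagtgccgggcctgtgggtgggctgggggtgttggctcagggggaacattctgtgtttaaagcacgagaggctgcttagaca
The higher ones belong to Hoxa5 (a homeobox transcription factor; chr6:52204588-52204837, - strand), Eva1b (a membrane protein; chr4:126147753-126148002, + strand) and Arhgef18 (a guanine nucleotide exchange factor; chr8:3392758-3393007, + strand).
Hoxa5: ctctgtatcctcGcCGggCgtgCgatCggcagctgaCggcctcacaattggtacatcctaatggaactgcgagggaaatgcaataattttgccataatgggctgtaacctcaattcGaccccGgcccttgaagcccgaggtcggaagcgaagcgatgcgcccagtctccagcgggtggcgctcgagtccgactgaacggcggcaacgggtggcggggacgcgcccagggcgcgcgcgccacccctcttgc
Eva1b: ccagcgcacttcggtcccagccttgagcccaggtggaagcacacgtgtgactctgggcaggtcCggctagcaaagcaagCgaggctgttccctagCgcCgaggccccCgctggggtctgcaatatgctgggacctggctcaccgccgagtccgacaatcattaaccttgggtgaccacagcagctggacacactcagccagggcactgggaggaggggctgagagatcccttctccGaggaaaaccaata
Arhgef18: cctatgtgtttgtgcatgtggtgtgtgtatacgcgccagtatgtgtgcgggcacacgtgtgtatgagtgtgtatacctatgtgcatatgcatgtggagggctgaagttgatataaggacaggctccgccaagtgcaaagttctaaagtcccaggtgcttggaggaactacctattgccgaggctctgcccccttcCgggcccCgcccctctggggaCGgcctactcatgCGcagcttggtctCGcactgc

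The 4 capitals of Angptl8 were all called lower as single positions. Their mean level was 34.1% and 15.4% in GMP 178 and 179, and 92.2%, 100% and 95% in LSK 1327, 1333 and 1334, so the groups were far apart. Gpld1 had 2 tested positions, both called, at 5.73% and 12.2% in GMP and 74.2%, 36.2% and 77.2% in LSK. LSK library 1333 lay well below the other two there. In Mcemp1, 2 of 3 positions passed, 1 of them after the start site, and their mean over the 3 was 38.1% and 31.9% in GMP against 82.6%, 91.8% and 86.6% in LSK. Tbc1d22a had 3 of 7 positions called, with means of 50.9% and 32.7% in GMP and 80.9%, 84.5% and 79.3% in LSK. The Hoxa5 window moved the other way, with 9 positions averaging 67.8% and 57.8% in GMP and 46.1%, 27% and 28.2% in LSK. None of its positions passed alone, although its tile did. Eva1b averaged 45.0% and 36.4% in GMP and 14.5%, 10.6% and 8.36% in LSK, and 1 of its 6 positions passed. Arhgef18 averaged 30.2% and 28.6% in GMP and 5.04%, 0.0% and 4.10% in LSK, with 2 of 11 positions called. Both lie after the start site, so none of its 8 printed capitals passed.

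Library 352 split these promoters. It was at 22.0% at Angptl8, 0.610% at Gpld1, 24.4% at Mcemp1 and 24.8% at Tbc1d22a, close to or below the knockout GMP libraries. At Hoxa5, Eva1b and Arhgef18 it was at 32.3%, 13.0% and 1.82%, below both knockout GMP libraries and within the range of the knockout LSK libraries. The 4 motifs searched for, with N for any base, were read on both strands of the 300-base windows. TTGCNNAA, letters of C/EBP sites, occurred once each in Angptl8 and Gpld1 and in none of the other 5 printed promoters. It occurs in 10.9% of all 31396 autosomal windows. The ETS core GGAAGT, held by 23.9% of windows, occurred once in Tbc1d22a. The RUNX letters TGTGGT (16.7% of windows) occurred once each in Angptl8, Mcemp1, Arhgef18 and Eva1b, and the GATA letters AGATAA (11.2%) in none of the 7. The letters are a description of the windows only.

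Most tiles that passed the test were less methylated in knockout GMP. Of 101233 tiles, 520 were lower (0.514%) and 145 were higher (0.143%) in knockout GMP than in knockout LSK, with median changes of -34.7 and 28.3 points. The test was a quasi-binomial model with dispersions moderated by limma, Benjamini-Hochberg adjusted p under 0.05 and a difference of at least 20 points. All 665 (0.657% of tiles) had no overlap between the 2 GMP and 3 LSK libraries, as had 27.9% of all tiles; the choice of the 665 by p and difference largely fixes this. At any size of difference, 0.778% of tiles had an adjusted p under 0.05. The tiles nearest the threshold differed by 20.03 points inside it and 19.94 outside. Levels come from sorted bulk cells, so a change within cells and a change in the mix of cells cannot be told apart. With no moderation or with edgeR's quasi-likelihood test no tile passed in either direction. Unadjusted p was under 0.05 at 5742 and 7740 of the 101233 tiles there, and at 6973 (6.89%) in the test used. A share of 0.05 is only a rough guide to what would be expected if no tile differed. Many tiles lie near 0% and the dispersion is kept at 1 or above, which can lower that share. The number called thus depends strongly on how the spread is estimated. It also depends on single libraries, with 164 lower and 31 higher tiles without GMP 178, 79 and 1 without GMP 179, 458 and 282 without LSK 1327, 800 and 272 without LSK 1333, and 354 and 71 without LSK 1334.

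**Figure D1:**
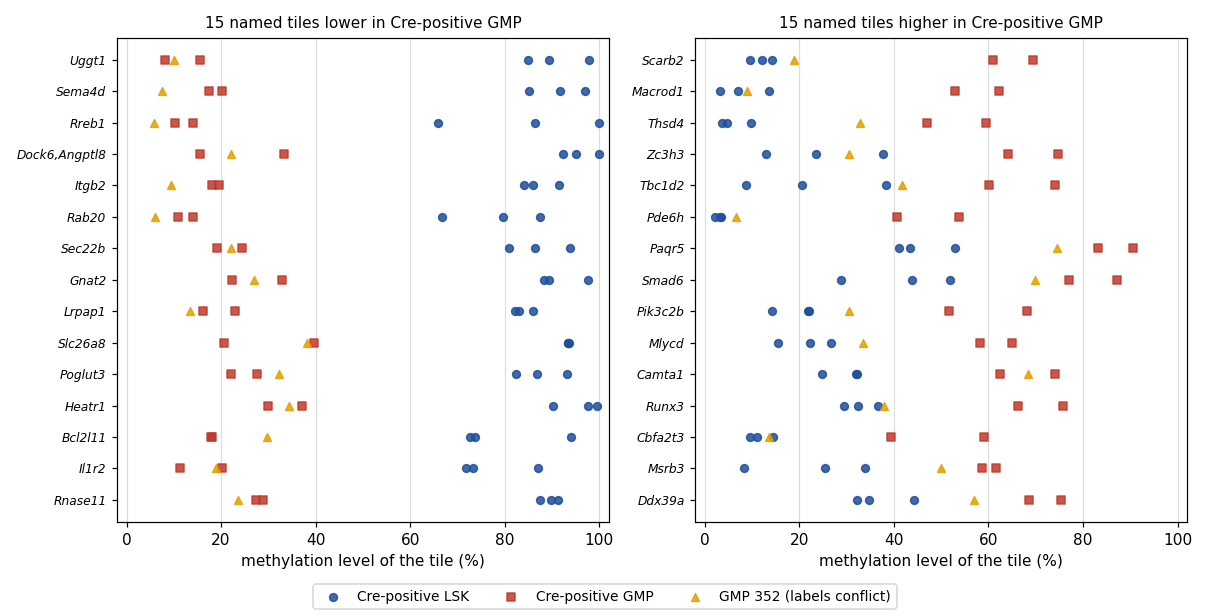
Methylation level (x axis, %) in each Cre-positive library at the 15 lower and 15 higher tiles with the largest differences and a named gene (y axis); circles are the 3 LSK libraries, squares the 2 GMP libraries and triangles GMP library 352. In the left panel 352 lies with the GMP libraries, and in the right panel it lies below both of them at all 15 tiles except Camta1.

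The tile with the largest loss in a named gene lay in the body of Uggt1, a sensor of protein folding in the endoplasmic reticulum (chromosome 1, 36233001 to 36234000, 3 positions). It was at 8.18% and 15.4% in GMP 178 and 179 and at 89.3%, 97.8% and 84.9% in LSK 1327, 1333 and 1334, a difference of -78.8 points (11.8% ± 5.13, SD, n = 2, against 90.7% ± 6.55, n = 3; adjusted p = 0.000309, limma-moderated model). Library 352 was at 10%, between the 2 GMP libraries. Itgb2, the common chain of the leukocyte integrins, lost methylation in its gene body (chromosome 10, 77548001 to 77549000, 6 positions): it was at 18% and 19.6% in GMP and 91.4%, 86.0% and 84.1% in LSK, and the difference was -68.3 points (adjusted p = 0.00023, same model). Both tiles kept their call without any 1 library (highest adjusted p 0.0261 for each, without 179, limma-moderated model).

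The other large losses lay in genes of varied roles. Sema4d, a semaphorin of lymphoid and myeloid cells (chromosome 13, 51711001 to 51712000), was at 17.4% and 20.2% in GMP and 91.6%, 97.0% and 85.2% in LSK. Il1r2, the decoy receptor of interleukin-1 that neutrophils carry (chromosome 1, 40091001 to 40092000), was at 11.3% and 20.3% in GMP and 87.0%, 71.9% and 73.3% in LSK. Bcl2l11, which encodes the pro-apoptotic protein Bim (chromosome 2, 128152001 to 128153000), was at 17.9% and 18% in GMP and 73.6%, 93.9% and 72.6% in LSK. In each of the 3 the GMP libraries were close together and the LSK libraries far above. Without GMP 179 the adjusted p was 0.054 for Sema4d and 0.282 for Bcl2l11, and without 178 it was 0.107 for Bcl2l11, while Il1r2 kept its call without either (limma-moderated model). The transcription factor gene Rreb1 (chromosome 13, 37847001 to 37848000) was at 10.2% and 14.1% in GMP and ranged from 65.8% to 100% in LSK. It lost its call without 178 (adjusted p = 0.182) or without 179 (0.172, limma-moderated model). Among the largest losses were also tiles of the GTPase gene Rab20, the SNARE gene Sec22b, the receptor chaperone gene Lrpap1 and the ribosome biogenesis gene Heatr1, with differences of -65.5, -65.2, -64.1 and -62.3 points. The remaining 5 of the 15, in Gnat2, Slc26a8, Poglut3 and Rnase11 and at the Dock6 and Angptl8 tile that holds the promoter shown above, differed by -64.1, -63.3, -62.6, -61.3 and -71.3 points. The gene with the most lower tiles was Sgms2, a sphingomyelin synthase, with 3 tiles at -57.4, -35.9 and -25.7 points. Without 179 the adjusted p rose above the threshold at Rab20 (0.0768), at Dock6 and Angptl8 (0.0584) and at 2 of the Sgms2 tiles (0.128 and 0.591), as it did without 178 at Rab20 (0.0857) and at the same 2 Sgms2 tiles (0.0529 and 0.0844, limma-moderated model).

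The labelled cell type was checked on genes that GMP use, of which Mpo, Ctsg and Cebpe had lower tiles in knockout GMP and Gfi1 a higher one. Of 24 tiles at 10 GMP marker genes, 4 were lower and 1 was higher (0.514% and 0.143% of all tiles), with a median difference of -3.28 points against -0.0745 over all tiles. Mpo, myeloperoxidase, had 2 of 2 tiles called. Its tile at 87801001 to 87802000 of chromosome 11 was at 58.1% and 54.6% in GMP and 95.4%, 92.3% and 94.6% in LSK, a difference of -37.7 points. Ctsg, the granule protease cathepsin G (chromosome 14, 56100001 to 56101000), was at 49.8% and 45.0% in GMP and 90.9%, 91.4% and 87.3% in LSK. Adjusted p was 0.000739 for that Mpo tile and 0.000772 for Ctsg, and 0.0843 and 0.0968 without GMP 179 (limma-moderated model). The groups did not overlap at either gene. The other Mpo tile differed by -25.4 points (adjusted p = 0.0175, and 0.824 without 179, limma-moderated model). Elane and Prtn3, 2 other granule proteases, had tiles at -4.57 points and at -6.75 and -6.29 points, none of which passed. No tile passed at Csf1r, Fcgr3, Calr or Prom1 either, where the median differences were 2.62, -6.93, -15.7 and -1.99 points. Of 35 tiles at 14 granule genes, 3 were lower and 0 higher, all 3 in Mpo and Ctsg.

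Among myeloid regulators, Cebpe and Cebpb, C/EBP factors of granulocyte and macrophage differentiation, each had 1 tile lower. Cebpe (chromosome 14, 54712001 to 54713000) was at 31.2% and 24.3% in GMP and 58.9%, 54.9% and 48.4% in LSK, at -26.3 points. Cebpb (chromosome 2, 167687001 to 167688000) was at 23.6% and 28.5% in GMP and 58.9%, 46.6% and 57.3% in LSK, at -28.2 points. Both lay near the adjusted threshold (0.0492 and 0.0341, limma-moderated model) and passed without LSK 1333 but not without any of the other 4 libraries, where adjusted p was 0.096 to 1 for Cebpe and 0.078 to 0.47 for Cebpb. Spi1, Cebpa and Irf8, which specify the myeloid lineage, had 6, 3 and 14 tiles and none passed. Over the 26 myeloid factors, 2 of 146 tiles were lower and 1 was higher, beside 0.514% and 0.143% of all tiles. These counts are too small to set apart from those shares. With 0.657% of all tiles called, 0 at Spi1, Cebpa and Irf8 is no result about these genes. The lower tile of the cytokine receptor gene Flt3 (chromosome 5, 147388001 to 147389000), at 19.3% and 16.4% in GMP and 42.3%, 57.8% and 45.5% in LSK, passed at an adjusted p of 0.0165 (limma-moderated model), and at 0.19 without 178, 0.595 without 179 and 0.0555 without 1334.

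The single tile of a GMP marker that was higher lay in Gfi1, a repressor needed for neutrophil development (chromosome 5, 107721001 to 107722000, 25 positions). It was at 42.5% and 40.4% in GMP and 6.40%, 13.1% and 9.61% in LSK, a difference of 31.8 points (adjusted p = 0.000944, and 0.0564 without 179, limma-moderated model). Library 352 was at 8.94%, inside the knockout LSK range. The controls were at 63.6% and 83.8% in GMP and 35.6% to 43.5% in LSK, so the order of the cell types was the same at higher levels.

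Of 201 tiles at 17 LSK and stem cell genes, 0 were lower and 3 were higher, where 0.514% and 0.143% of all tiles were. At a share that low, 0 lower tiles in lists of this size is near the background. The 3 higher tiles lay in Msi2, an RNA-binding protein of stem cells, and Prdm16, a stem cell regulator. Msi2 (chromosome 11, 88468001 to 88469000) was at 60% and 61.3% in GMP and 33.9%, 36.6% and 24.6% in LSK, and the Prdm16 tile at 154586001 of chromosome 4 was at 48.1% and 34.3% in GMP and 16.3%, 11.2% and 10.9% in LSK. The median over the list was 0.372 points, near that of all tiles. Hlf, Mecom and Meis1 had 7, 22 and 9 tiles, with differences of up to 14.9, 28.9 and 8.23 points, and none passed. Without GMP 179 neither the Msi2 tile (adjusted p = 0.351) nor this Prdm16 tile (0.14) passed, nor did they without 178 (0.204 and 0.342, limma-moderated model).

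Erythroid and megakaryocyte genes had 0 lower and 3 higher of 130 tiles, beside the same 0.514% and 0.143% of all tiles. The corepressor gene Cbfa2t3 held 2 of them; its tile on chromosome 8 at 122674001 to 122675000 was at 39.5% and 59.1% in GMP and 14.5%, 11% and 9.53% in LSK, a difference of 37.6 points (adjusted p = 0.00205, and 0.128 without 179, limma-moderated model). Zfpm1, the GATA1 partner FOG1, held the third, at 32.8% and 41.1% in GMP and 20.1%, 14.6% and 9.19% in LSK (adjusted p = 0.0318, and 0.785 without 179, limma-moderated model). Among lymphoid genes, 1 of 225 tiles was lower (Flt3) and 2 were higher, both in Runx3, a Runt-family factor of T cells. The Runx3 tile at 135175001 to 135176000 of chromosome 4 has 36 positions and was at 66.3% and 75.8% in GMP and 36.6%, 32.5% and 29.5% in LSK (adjusted p = 0.000778, and 0.0618 without 179, limma-moderated model). Of 162 tiles at the Hox clusters, 0 were lower and 3 were higher, at Hoxa3, Hoxa5 and Hoxa6 (2 tiles) and in Hoxb3, homeobox genes of stem and progenitor cells. The Hoxa tile with 73 positions that holds the promoter printed above (chromosome 6, 52204001 to 52205000) was at 51.5% and 59.7% in GMP and 29.0%, 16.2% and 18.8% in LSK (adjusted p = 0.00583, 0.0844 without 178 and 0.352 without 179, limma-moderated model).

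Of 104 tiles at cytokine and signalling genes and 98 at adhesion and homing genes, 1 in each list was lower (Flt3 and Itgb2) and 1 higher (Kit and Gnai2), counts too small to set apart from the 0.514% and 0.143% of all tiles. Kit, the receptor used to sort both fractions, had 1 of 7 tiles higher (chromosome 5, 75628001 to 75629000), at 30.8% and 54.2% in GMP and 3.63%, 11.5% and 11.4% in LSK. Library 352 was at 10.4% there, and the control GMP libraries at 7.77% and 23.3%. Gnai2, an inhibitory G-protein subunit that acts downstream of chemokine receptors (chromosome 9, 107630001 to 107631000), was at 38.2% and 45.3% in GMP and 10.3%, 18% and 10.2% in LSK. Without GMP 179 the adjusted p was 0.796 for Kit and 0.354 for Gnai2 (limma-moderated model). Egfl7, an endothelial and stem cell gene and the only called tile among 34 at markers of other cells that a sort could hold, was at 19.4% and 25% in GMP and at 0.179%, 0.439% and 2.14% in LSK (adjusted p = 0.0062, and 0.224 without 179, limma-moderated model). No tile passed among 104 at imprinted genes or 83 at methylation enzymes, with median differences of 0.437 and -0.110 points; with 0.657% of all tiles called, 0 in lists of this size is no result about these genes. The 10 tiles at Dnmt3a differed by -4.76 to 3.67 points.

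The largest gains in named genes were in Scarb2 and Macrod1. Scarb2, a lysosomal membrane protein (chromosome 5, 92498001 to 92499000), was at 69.4% and 61.1% in GMP and 9.47%, 14.2% and 12.0% in LSK, the only gain over 50 points (53.3, adjusted p = 0.00127, and 0.054 without 179, limma-moderated model). Macrod1, which removes ADP-ribose from proteins (chromosome 19, 7187001 to 7188000), was at 53.0% and 62.2% in GMP and 13.7%, 3.19% and 7.09% in LSK. Pik3c2b, a class II phosphoinositide 3-kinase (chromosome 1, 133084001 to 133085000), was at 51.7% and 68.2% in GMP and 22.1%, 21.9% and 14.2% in LSK, and at 40.5 points ranked below Scarb2, Macrod1 and 6 other genes. Library 352 was at 18.8%, 8.86% and 30.4% at these 3 tiles, nearer to the knockout LSK libraries than to the knockout GMP libraries. Ltbp3, a binding protein of latent TGF-beta, had the most higher tiles, 3, at 21.2, 32.2 and 27.8 points. Without 179 the adjusted p was 0.145 for Macrod1, 0.332 for Pik3c2b and 0.0987 to 0.623 for the 3 Ltbp3 tiles (limma-moderated model).

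The other 12 of the 15 largest gains ranged from 34.8 points in the RNA helicase gene Ddx39a to 47.3 in Thsd4. They included Camta1, a calmodulin-binding transcription activator (38.5 points), Mlycd, the malonyl-CoA decarboxylase (40.1), Tbc1d2, which acts on Rab7 (44.6), and Msrb3, a methionine sulfoxide reductase (37.5). None of the 12 kept its call without GMP 179, where adjusted p was 0.0528 to 1 (limma-moderated model). Thsd4, Paqr5 and Smad6 lie within 5 Mb of each other on chromosome 9, at 60172001, 62018001 and 63973001. Thsd4 was at 47.1% and 59.5% in GMP and 9.69%, 3.61% and 4.81% in LSK, Paqr5 at 83.3% and 90.6% against 53.0%, 41.1% and 43.4%, and Smad6, an inhibitor of BMP signalling, at 77.1% and 87.2% against 51.8%, 28.8% and 43.9%. Some 5-Mb windows hold C positions that each library of one knockout group covers with at least 20 reads and the other group does not list. Their share of the positions common to both was 6.36% in this window, 9.28% at Pde6h and 4.07% at Scarb2, against a median of 0.791% over windows. Windows at 2% or more held 6.43% of all tiles, 5.77% of the lower tiles and 18.6% of the higher tiles. With these windows left out, 479 lower and 115 higher tiles were called. Whether the positions listed in only one group bear on the methylation differences was not tested.

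The losses were present in control cells too. Of the 520 lower tiles, 497 had all 11 libraries. The control GMP libraries were below the control LSK libraries in 492 of the 497, by 20 points or more in 418 (as in 1.07% of all tiles), and 416 passed the same test in controls (83.7% of 497, and 43.8% of the 950 tiles lower in control GMP). Control and knockout share no library in this reading, and 0.979% of all 97006 tiles were called lower in control GMP. Median levels over the 497 were 84.6% in control LSK and 40.8% in control GMP, beside 81.6% and 38.1% in the knockout over all 520. Uggt1, for example, was at 5.12% and 5.31% in control GMP and at 88.5% to 92.7% in control LSK. Without each of the 5 knockout libraries in turn, the share with the same sign in controls was 97.6% to 100% of the lower tiles then called.

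The gains had the same sign in control cells at most tiles, with smaller differences. The knockout libraries chose these tiles, so a smaller difference in other libraries can follow from the choice alone. The share of all tiles with the same sign was not counted, here or for the losses. Of the 145 higher tiles, 142 had all 11 libraries, and control GMP was above control LSK in 125, by 20 points or more in 47 (as in 0.243% of all tiles). Of the 142, 43 passed in controls (30.3%, and 23.5% of the 183 higher in control GMP, a call made at 0.189% of all tiles). The median control difference was 12.4 points, from 50.4% in control LSK to 66.2% in control GMP. Over all 145 higher tiles the knockout went from 21.0% to 50.1%, lower than the controls in both cell types. This too describes tiles that the knockout libraries chose. Control LSK was 20 points or more above knockout LSK at 95 of the 142, and at 8 of the 497 lower tiles. As the knockout LSK libraries also chose the tiles, these 2 counts are a description. Macrod1 was at 82.2% and 82.6% in control GMP and 40.3% to 44.9% in control LSK, and Pik3c2b at 92.6% and 94.0% against 81.2% to 90.0%. A difference between cell types was therefore called in controls at Macrod1 (39.9 points, adjusted p = 0.000457) and not at Pik3c2b (6.47 points, adjusted p = 0.45, limma-moderated model).

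**Figure D2:**
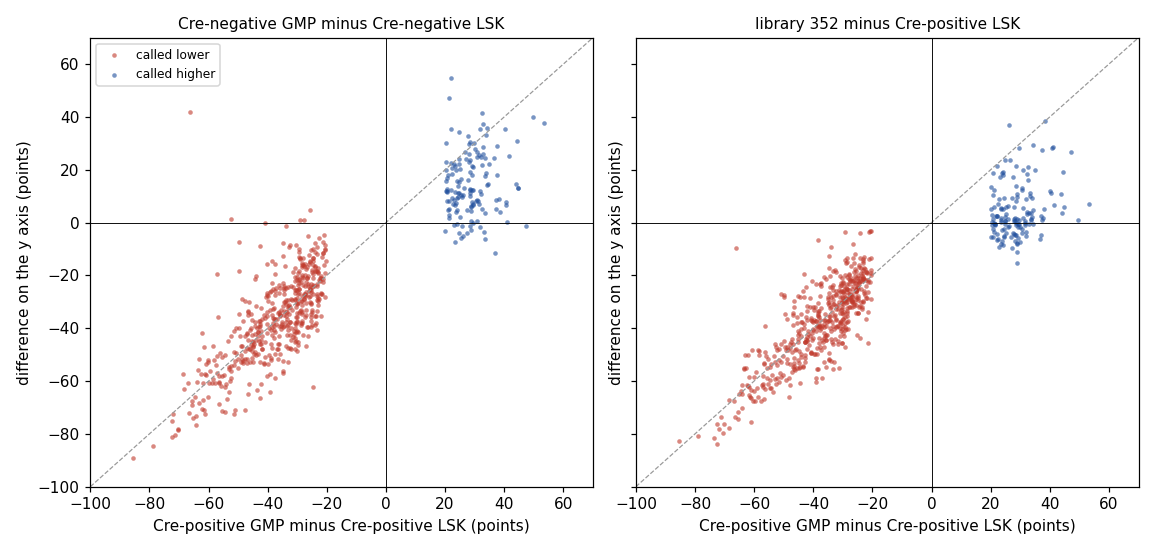
Each point is a called tile; the x axis is knockout GMP minus knockout LSK in points, and the y axis is control GMP minus control LSK (left) or library 352 minus knockout LSK (right), with the dashed line of equality. Lower tiles (red) lie along the line in both panels, while higher tiles (blue) have a median of 12.4 points in controls and 1.82 points in library 352; the right panel has the knockout LSK libraries on both axes.

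Library 352 was low at the lower tiles and also low at the higher tiles. Relative to the knockout LSK mean, it was lower by 20 points or more at 469 of the 520 lower tiles (90.2%), with a median difference of -36.5 points. At the 145 higher tiles it was higher by 20 points or more at 13 (8.97%), with a median difference of 1.82 points. The higher tiles were chosen with 178 and 179 high, so a library outside the test can fall below both from the choice alone. Library 352 lay below both knockout GMP libraries at 139 of the 142 higher tiles with all libraries, and at 193 of the 497 lower tiles. Its median level at the higher tiles was 25.1%, beside 47.1% in 178 and 54.4% in 179 and 18.4% to 22.1% in the knockout LSK libraries. The order of these 3 GMP libraries follows their coverage of the Dnmt3a segment (0 of 5 positions listed, 27.9% and 53.3%), which is 3 libraries and was not tested. Library 179 was above 178 at 111 of the 142 higher tiles and at 249 of the 497 lower ones. Over all positions, 352 was also the lowest GMP library in each bin of control level, and 179 lay above 178. Where controls are at 20 to 40%, the means were 20.2% in 352, 24.0% in 178 and 25.2% in 179. The same counts over all tiles were not made, so the counts given here cannot be set apart from this wider order. The 13 higher tiles at which 352 was also 20 points up included Bsdc1, Smad6, Paqr5, Camta1, Msrb3 and Thsd4, named after their values were seen. This share was 20.9% of the 282 higher tiles called without LSK 1327 and 0 of the 1 called without GMP 179. Among lower tiles it was 82.8% to 98.7% without each library in turn. At Bsdc1, 352 was at 69.1% beside 69.6% and 70.3% in 178 and 179. Smad6, Paqr5 and Thsd4 share the 5-Mb window of chromosome 9 described above, with 6.36% group-specific positions. Camta1 lies in a window with 2.82%. With windows that hold group-specific positions left out (10 or more, at 1% or more), 352 was 20 points up at 3 of 83 higher tiles.

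**Figure D3:**
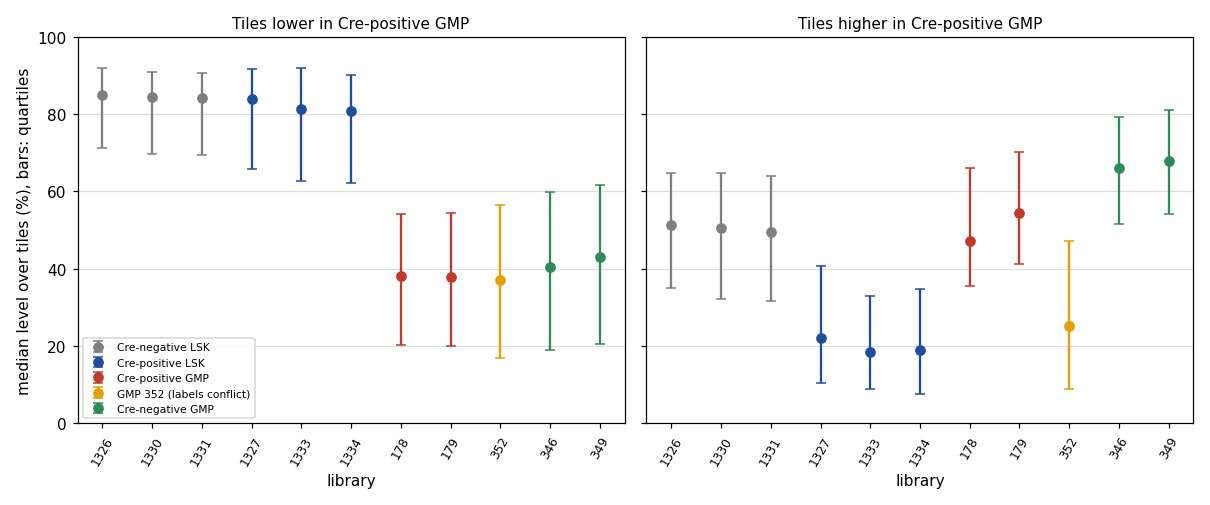
Median level (y axis, %, bars from the lower to the upper quartile over tiles) in each of the 11 libraries (x axis) over the lower tiles (left) and the higher tiles (right); colours mark cell type and genotype. At the lower tiles all GMP libraries lie between 37.1% and 43.1%, and at the higher tiles library 352 lies at 25.1%, below the other 4 GMP libraries.

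A direct test of whether the GMP minus LSK difference depended on the genotype called few tiles. In a model of 10 libraries, the cell type by genotype product passed at 3 tiles in the negative direction (0.00309%) and 2 in the positive direction (0.00206%) of 97006, with 4364 (4.5%) at an unadjusted p under 0.05. Of the 5, 2 had a called difference in the knockout. A tile outside genes on chromosome 4 (107667001 to 107668000) was at 12.1% and 39.7% in knockout GMP and 96.1%, 98.2% and 81.8% in knockout LSK, while the controls ran the other way, at 87.2% and 90.9% in GMP and 42.2%, 63.9% and 35.6% in LSK. The Thsd4 tile rose by 47.3 points in the knockout and differed by -1.28 points in controls. Of the other 3, Srd5a3, a steroid reductase family gene needed for protein glycosylation (chromosome 5, 76153001 to 76154000), was at 90.0% and 87.0% in knockout GMP and 78.4%, 76.7% and 84.8% in knockout LSK. It was at 40.8% and 45.5% in control GMP and 77.9%, 86.0% and 82.9% in control LSK, so the control GMP libraries stood apart there. Without LSK 1333 this test called 44 tiles, without LSK 1326 or LSK 1330 it called 1, and without any 1 of GMP 346, GMP 349, GMP 178 or LSK 1331 it called 0. Of 67 tiles lowered by 30 points in knockout GMP in simulated data of 97006 tiles, this test called 52.2%, so differences of that size can be missed. The simulated tiles had the model's own dispersions, started at a high level and were only lowered.

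Of the called tiles, 5 lower and 17 higher ones had a control difference of the opposite sign, mostly a small one. It reached 20 points at 1 of the lower tiles, on chromosome 4, and at 0 of the higher tiles. The lower ones, named after their values were seen, were the tile on chromosome 4 just described, tiles in Adpgk, Plxna1 and Cfap54, and a tile on chromosome 9 at 59227001. Adpgk, an ADP-dependent glucokinase (chromosome 9, 59315001 to 59316000), was at 35.4% and 46.4% in knockout GMP and 91.2% to 97.1% in knockout LSK, and differed by 1.44 points in controls. The product test at Adpgk gave an adjusted p of 0.214 (limma-moderated model). Among the 17 higher ones were Kit, Stat6, Shroom3, Eva1b and a Runx3 tile at 135155001, with control differences of -6.09, -3.92, -3.99, -0.0288 and -1.31 points. None of these 5 passed the product test. The Adpgk tile and the one at 59227001 lie close together on chromosome 9, so they need not be separate events. The Kit and Runx3 tiles lie in 5-Mb windows with 1.79% and 1.24% group-specific positions, against a median of 0.791% over windows.

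Called tiles lay mostly in gene bodies, and few of the lower tiles held many C positions. Of the 520 lower tiles, 65.8% lay in gene bodies, 27.7% outside genes and 6.54% within 1 kb of a start site, against 52.9%, 26.2% and 20.9% of all tiles. Of the 145 higher tiles, 69% lay in gene bodies, 17.2% outside genes and 13.8% near a start site. Tiles with more than 20 C positions made up 14.1% of all tiles, 11% of the higher tiles and 0.192% of the lower tiles (16 and 1 tiles). Tiles with 3 to 5 positions were 53.3% of all, 49.7% of the higher and 66.2% of the lower tiles. A tile under 20% in knockout LSK cannot be called lower, and one over 80% cannot be called higher. Tiles at a control level of 0 to 20% were 29.0% of all, 3.02% of the lower and 2.82% of the higher tiles. How far this floor sets the shares by position and by number of C positions was not counted, so those shares are a description. Tiles whose control GMP and control LSK means averaged 20 to 80% were 13.6% of all, 81.9% of the lower and 83.8% of the higher tiles. For tiles that differ between the cell types in controls, as most lower tiles do, a middle average is partly fixed by the call. For such tiles the average alone does not show partly methylated DNA. Within single control libraries, medians over the lower tiles were 40.4% and 43.1% in GMP and 84.2% to 84.8% in LSK. Over the higher tiles they were 66.1% and 67.7% in GMP and 49.4% to 51.2% in LSK. The calls were mostly single tiles, with 20 of 520 lower and 6 of 145 higher tiles beside another called in the same direction, and the longest run was 2. Median reads per tile and library were 340 in GMP and 414 in LSK at the lower tiles and 430.0 and 660 at the higher ones, against 353 and 509 over all tiles.

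**Figure D4:**
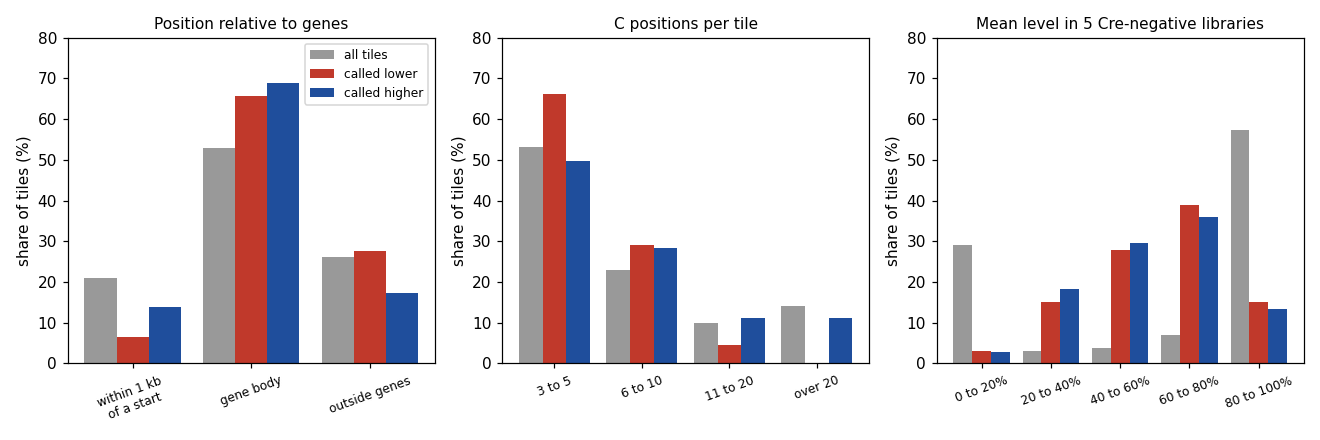
Share of tiles (y axis, %, each colour summing to 100 within a panel) by position relative to genes, number of C positions and control level. Control level is the average of the control GMP and control LSK means. Grey is all tiles, red the lower and blue the higher tiles. Of the lower tiles 6.54% lie within 1 kb of a start site and 0.192% hold more than 20 C positions, beside 20.9% and 14.1% of all tiles. Tiles under 20% in knockout LSK cannot be called lower, which can shape these shares.

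Most single C positions that passed were lower in knockout GMP. Of 1294629 positions, 1618 were lower (0.125%) and 398 higher (0.0307%) by at least 25 points at an adjusted p under 0.05, with median changes of -54.1 and 45.5 points. Of these, 1022 and 161 lay in a called tile of the comparison. No position passed with no moderation or with a prior that included all positions. Unadjusted p was under 0.05 at 25759 and 36065 positions in these 2 settings, and at 30514 in the test used. Each is a share below 0.05. The share expected if no position differed need not be 0.05 here, because the dispersion is kept at 1 or above and many positions lie near 0%. Of the 1243256 positions with all 11 libraries, 784209 had a control level of 0 to 20%, with a knockout LSK mean of 0.945%. The calls needed both GMP libraries. Both called counts rose without LSK 1333, to 2878 and 931.

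The mean methylation of the 2 cell types lay within the spread of the LSK libraries. Over the common positions it was 32.4% and 32.5% in GMP 178 and 179, and 32.7%, 32.2% and 32.1% in LSK 1327, 1333 and 1334. The difference was 0.0934 points (32.4% ± 0.0912, SD, n = 2, against 32.3% ± 0.281, n = 3; exact two-sided permutation p = 0.8, where 0.1 is the smallest that 2 against 3 libraries allow). Library 352 was lowest at 31.8%. Where controls are at 20 to 40%, knockout GMP was at 24.6% ± 0.828 and knockout LSK at 22.8% ± 1.45 (exact two-sided permutation p = 0.3), and 352 was at 20.2%. In the other 4 bins of control level the differences were -0.00866 to 0.825 points, with exact two-sided permutation p of 0.8 to 1. Weighted by coverage, the overall difference was 3.81 points. Within the bins of control level the same weighting gave 0.222, 3.05, 1.09, 0.897 and 0.0610 points, from the lowest bin to the highest. A weighted mean over all positions also depends on how each library's reads are spread over the bins. The part of that spread in the 3.81 points was not tested.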

How the data were processed

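DNA methylation was measured by enhanced reduced representation bisulfite sequencing: per the labels' protocols, MspI fragments (150 to 400 bp) were treated with bisulfite and read on a HiSeq2500 (single-end, 50 bp). The authors deposited, per the file headers, coverage (a read count) and 2 percent columns, for C and for T, at each C position with 10 or more reads. The submitters' processing notes name Bismark, mm10 and GRCm38, with no version. Methylated reads were recovered as coverage times percent, which gave whole numbers at 100% of positions within rounding. Other bases were read at 0.762 to 1.42% of positions and left out. The 2 strands of a CpG were kept apart.

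The main test was a 2-group quasi-binomial model (F test, adjusted by Benjamini-Hochberg; R 4.3.3, limma 3.58.1 squeezeVar, trend on log coverage, prior from features at 5 to 95%, dispersion of at least 1). Prior degrees of freedom were 8.23 for tiles and 67.4 for positions, beside 3 residual. Thresholds were 20 points for tiles and 25 for positions. Fits that leave out a GMP library assume that the lone one varies like the LSK libraries. The gene lists and members were chosen with earlier results of these data known. Named are the 15 largest differences in each direction with a protein-coding symbol, list genes with a called tile (3 per list), genes with 3 or more called tiles, and tiles called for the product; other names are said to be chosen after their values were seen. Genes and promoter letters came from RefSeq tables of GRCm38.p6, and all 63 tested positions in the promoter windows fell on C or G as their strand requires. No promoter letters of chromosome 18 were used. Simulated data (101233 tiles) used the real coverage and the dispersions that the model itself had estimated, so they cannot check that estimate. Changed features started at a high level and were only lowered, so gains were not simulated. Calls were made at 91% of 67 tiles lowered by 30 points and at 2 of 101033 unchanged ones. At 1294629 positions, 78.8% of those lowered by 60 points were called. Reads carry no molecular identifiers. The alternatives tried included edgeR 4.0.16.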

Additional observations from a re-analysis of the deposited data

Results flagged for a closer look

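The product of cell type and genotype passed at 5 tiles, which are listed here because the GMP minus LSK difference itself differed between knockout and control (limma-moderated model, knockout difference minus control difference). At the intergenic tile on chromosome 4 (start 107667001) the value was -108 points (adjusted p = 0.0261). In Thsd4 on chromosome 9 it was 48.6 points (0.0399) and in Srd5a3 on chromosome 5 it was 47.7 points (0.0261). In Nphp4, a cilium gene on chromosome 4 (start 152500001), it was -35.0 points (0.0314), with 78.0% and 83.2% in knockout GMP, 95%, 100% and 95.9% in knockout LSK, 97.3% and 96.4% in control GMP and 74.4% to 82.4% in control LSK. In Plekhg5, an exchange factor gene on chromosome 4 (start 152102001), it was -23.7 points (0.0399), with 79.2% and 86.6% in knockout GMP against 96.1% to 97.7% in knockout LSK. In both genes the knockout LSK and control GMP libraries were the high ones. Of the 5 tiles, 4 lie in 5-Mb windows with C positions listed in 1 of the 4 groups and absent from another, as do 36.7% of all tiles, and 1 tile passed with such windows left out. The part of these windows in the differences was not tested.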

How the results depend on the processing

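Counts are given as lower and higher tiles, beside 520 and 145. They were 334 and 69 with a prior from all tiles, 0 and 0 with no moderation and with edgeR, 289 and 41 with limma on logit levels, 888 and 552 with a Fisher exact test on pooled reads, 258 and 86 with 5 or more positions per tile, and 351 and 83 without windows with group-specific positions. The higher count was 266 with dispersion from all 4 groups and 52 at 30 points. Leaving out 1 library gave 79 to 800 lower and 1 to 282 higher tiles. Lower tiles were the majority in each setting that called any tile. No named tile changed sign; of 56 named tiles called, 45 lost the call without GMP 179, 29 without GMP 178 and 19 without LSK 1334. The other settings, coverage of 20, shifted or shorter tiles, 10 points, 5 libraries, thinned reads and windows at 2% (chosen after seeing the data), stayed within 1.5 times.

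For single positions, beside 1618 and 398, counts were 0 and 0 with a prior from all positions (36065 at an unadjusted p under 0.05) or no moderation (25759), 6369 and 6547 by Fisher's test, and 734 and 107 with reads thinned to 30, a fit without a coverage trend. The higher count was 735 with 4 groups and 214 without windows. Leaving out 1 library gave 0 to 2878 and 0 to 931.

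The product called 0 tiles with no moderation, 8 at coverage of 20, 14 by a Wald test in points, 1 without windows, and 0 to 44 leaving out 1 library. The mean difference was -0.00707 to 0.254 points leaving out 1 library. In the bin of 0 to 20% it was 0.222 weighted by coverage, 0.0810 over tiles and -0.0595 to 0.0494 leaving out 1 library, which gave -0.161 to 2.17 at 40 to 60%, -0.137 to 1.76 at 60 to 80% and -0.0772 to 0.385 at 80 to 100% (-0.0216 over tiles). Library 352 was 20 points lower at 92.8% of lower tiles with the prior from all tiles and at 82.8% to 98.7% leaving out 1 library; it was 20 points higher at 3.61% of higher tiles without windows and at 0 to 20.9% leaving out 1 library. The same sign in controls held for 97.6% to 100% of lower and 0 to 93.5% of higher tiles leaving out 1 library, the 0 resting on 1 tile. Causes were not tested. No paired analysis was possible because the groups share no library numbers. Summed coverage was 95.4 to 109.7 M in knockout GMP and 163.6 to 164.1 M in knockout LSK, and few reads limit each position.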
